A study of Homo sapiens with 10 samples.

Results

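The messages of 10 glycolytic enzymes were followed in protrusions and cell bodies of MDA-MB-231 cells: the phosphofructokinases PFKM, PFKL and PFKP, then ALDOA, TPI1, GAPDH, PGK1, ENO1, PKM and LDHA. They were found in the deposited gene table by symbol, all 10 were present among its 26134 genes, each under 1 identifier, and all 10 passed the filter on low values that left 10894 genes for testing. MDA-MB-231 is a triple-negative human breast cancer line. Single cells of this 1 line were trapped by micro-hooks on a chip, grew protrusions for 6 h and were fixed in 4% paraformaldehyde, and the parts were cut out by laser capture microdissection. Protrusions gave 5 libraries and their cell bodies another 5, both numbered 1 to 5, with no other treatment or genotype. Neither the cells per library nor separate cultures are stated in the labels, so p-values measure only how far these libraries scatter, and that scatter may be technical.

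Glycolysis splits glucose into pyruvate in the cytosol and yields ATP without oxygen. Phosphofructokinase commits fructose 6-phosphate to the pathway, and its active form is a tetramer of muscle (M), liver (L) and platelet (P) type subunits that are regulated differently by metabolites. Aldolase and triosephosphate isomerase then split and interconvert the sugar, GAPDH and phosphoglycerate kinase make the first ATP, enolase and pyruvate kinase finish pyruvate, and lactate dehydrogenase turns pyruvate into lactate, the route favoured by many cancer cells.

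Values are scaled TPM, a level per transcript length that can be compared between genes, and each mean ± SD covers the 5 libraries of 1 group (n = 5). Library sums lay between 737343 and 1103254 in protrusions and between 967421 and 1390253 in cell bodies. Their read depth is unknown. All 6 listed markers of the line had a mean of 1 or more in both groups, and their sum was 4669 to 8160 in protrusions and 7520 to 12618 in cell bodies. LGALS1 made up most of it and was called lower, at 5448 ± 1191 in protrusions and 9177 ± 1953 in cell bodies (limma adjusted p = 0.00677). VIM (588 and 596), CD44 (56.6 and 47.5), S100A4 (35.3 and 27.0), TGFBI (3.90 and 2.26) and SPARC (3.61 and 2.51), each as protrusion and cell body means, did not pass. PGR averaged 0 in protrusions and 0.002 in cell bodies. The luminal list was not absent: KRT18 averaged 285 in protrusions and 206 in cell bodies. The nuclear RNA MALAT1 lay between 0.288 and 25.2 in protrusions, the highest in protrusion replicate 2, and between 47.5 and 143 in cell bodies. Results are therefore also given without both libraries numbered 2 where these change them.

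The 3 phosphofructokinase messages come from separate genes, PFKM on chromosome 12, PFKL on chromosome 21 and PFKP on chromosome 10 in GENCODE release 29. The stretch of 60 coding bases in which they are most alike is shown because their comparison needs reads that can be told apart. Capitals mark the 10 positions that are not the same in all 3.
PFKM: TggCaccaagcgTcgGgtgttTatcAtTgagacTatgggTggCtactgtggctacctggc
PFKL: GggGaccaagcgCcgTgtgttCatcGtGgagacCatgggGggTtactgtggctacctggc
PFKP: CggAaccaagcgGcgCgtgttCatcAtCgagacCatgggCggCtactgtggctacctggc
The stretch starts at coding base 1683 in PFKM, 1680 in PFKL and 1713 in PFKP. Over the whole coding sequence, 1630 of 2327 aligned bases were identical between PFKM and PFKL, and the identity was 70.5% between PFKM and PFKP and 70.4% between PFKL and PFKP. The longest run shared by a pair was 35 bases, between PFKL and PFKP. No run of 50 bases of the PFKM or PFKL transcript occurred in a transcript of another gene. For PFKP 2.76% of such runs did, all in the overlapping locus AL451164.3.

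PFKM had the largest change of the 10 messages. It stood at 4.51, 7.67, 3.01, 5.75 and 4.58 in protrusion replicates 1 to 5, against 29.4, 56.4, 27.2, 30.0 and 55.0 in cell body replicates 1 to 5. The highest protrusion was below the lowest cell body, and the groups did not overlap. The means were 5.10 ± 1.73 in protrusions and 39.6 ± 14.7 in cell bodies, so the cell body mean was 7.75 times the protrusion mean. PFKM fell in protrusions, with a change of -2.71 on the log2(value + 1) scale (SE 0.27, limma adjusted p = 2.24e-06) and of -2.70 without both libraries numbered 2 (adjusted p = 2.38e-06). Values are relative within a library, so less PFKM message and more of the other RNA cannot be told apart. Of all tested genes, 4.41% had a lower log2 change.

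Within the cell bodies PFKM was the most variable of the phosphofructokinases. Replicates 2 and 5 stood at 56.4 and 55.0, while replicates 1, 3 and 4 lay between 27.2 and 30.0. In GENCODE release 29, 8.58% of the PFKM exon bases overlap exons of SENP1, a SUMO protease gene on the opposite strand, and the strand setting of the counting is not given in the sources used here. SENP1 itself lay between 0.556 and 1.64 in protrusions and between 1.13 and 1.69 in cell bodies (limma adjusted p = 0.403), below every PFKM value of the same group.

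PFKP, the platelet-type subunit, averaged 47.3 ± 9.81 in protrusions and 35.5 ± 5.55 in cell bodies and did not pass. It stood at 44.4, 57.7, 33.9, 44.3 and 56.2 in protrusion replicates 1 to 5, against 26.8, 37.1, 35.8, 35.8 and 42.2 in cell body replicates 1 to 5. The groups overlapped, with protrusion replicate 3 among the cell body values and the other 4 protrusions above all cell bodies. As a share of the library sum the groups of PFKP did not overlap. The log2 change was 0.39 ± 0.19 (SE, limma adjusted p = 0.148), and it passed with the replicate number as a block (adjusted p = 0.0370). It also passed with each library brought to the same sum (0.74, adjusted p = 0.0192) and with median-of-ratios scaling (0.54, adjusted p = 0.0328), but not with quantile normalization (0.43, adjusted p = 0.0943).

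PFKL, the liver-type subunit, had the lowest mean of the 10 messages in both groups, 3.63 ± 1.26 in protrusions and 2.08 ± 0.514 in cell bodies. It stood at 2.19, 5.37, 2.74, 3.55 and 4.29 in protrusion replicates 1 to 5, against 1.49, 2.16, 2.85, 1.76 and 2.14 in cell body replicates 1 to 5. In 4 of 5 numbers there was more PFKL in the protrusion than in their cell body, and in number 3 there was slightly less. The log2 change was 0.56 ± 0.23 (SE, limma adjusted p = 0.0934), and adjusted p was 0.0541 with the replicate block. It passed under each of the 3 other library scalings tried, with changes of 0.66 to 1.02 (adjusted p = 0.00189 to 0.0323), and without protrusion replicate 1 (adjusted p = 0.0464).

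**Figure D1:**
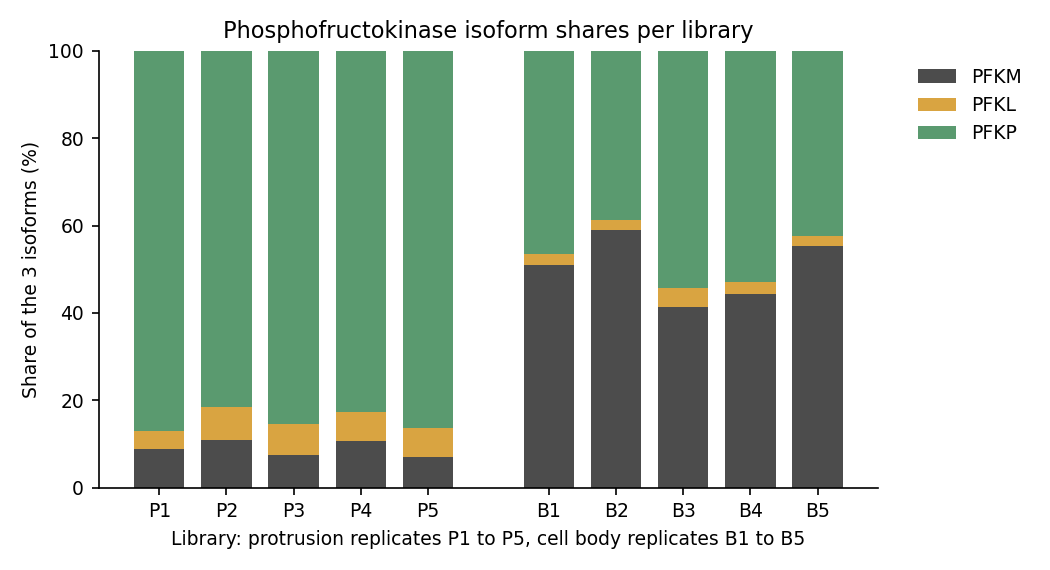
Share of PFKM, PFKL and PFKP in the sum of the 3 phosphofructokinase isoforms (percent, vertical axis) in each library, with protrusion replicates P1 to P5 on the left and cell body replicates B1 to B5 on the right. PFKM made up 7.03% to 10.8% of the isoform sum in protrusions and 41.3% to 59.0% in cell bodies.

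Isoform shares and ratios within 1 library do not depend on how the libraries were scaled. PFKM made up 9.0% ± 1.75 of the isoform sum in protrusions and 50.2% ± 7.37 in cell bodies. PFKP made up 84.6% ± 2.36 in protrusions and 47.0% ± 6.69 in cell bodies. PFKL made up 6.40% ± 1.25 in protrusions and 2.79% ± 0.887 in cell bodies, where cell body replicate 3 at 4.33% was just above protrusion replicate 1 at 4.28%. The shares of PFKM and PFKP did not overlap between the groups. The isoform sum was 56.0 ± 12.2 scaled TPM in protrusions and 77.2 ± 18.9 in cell bodies, and it was lower in the protrusion for 5 of 5 numbers. Unlike the shares and ratios, this sum depends on how the libraries were scaled. As a percentage of the library sum it was not lower in the protrusion of every number.

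The 3 isoform ratios were each tested by exact permutation, two-sided, over all ways to divide the 10 libraries into 5 and 5, with p adjusted over the 3 pairs. PFKP over PFKM lay between 7.53 and 12.3 in protrusions, against 0.657 to 1.32 in cell bodies. The log2 ratio was higher in protrusions by 3.35 ± 0.24 (SE), a fold of 10.2 (exact p = 0.00794, the smallest the design allows, adjusted 0.0119). PFKL over PFKM lay between 0.485 and 0.938 in protrusions, against 0.0382 to 0.105 in cell bodies. Its log2 ratio was higher in protrusions by 3.71 ± 0.32, a fold of 13.1 (exact p = 0.00794, adjusted 0.0119). PFKP over PFKL lay between 10.7 and 20.3 in protrusions and between 12.5 and 20.4 in cell bodies. Its log2 difference of -0.36 ± 0.20 did not pass (exact p = 0.135, adjusted 0.135), which does not show that the ratio was the same in both. With the same-numbered libraries paired, both ratios over PFKM were higher in the protrusion of every number, with an exact sign-flip p of 0.0625, the smallest that 5 pairs allow (adjusted 0.0938).

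The genes whose profiles over the 10 libraries lay closest to that of each isoform were ranked among protein-coding genes with a mean of 10 or more, by the root mean square distance between centred log2 values. For PFKM, among 3537 genes, they were AKD1 (distance 0.14), TAPBP (0.18) and NABP2 (0.19). AKD1 averaged 1.90 ± 0.584 in protrusions and 19.3 ± 6.27 in cell bodies. TAPBP, which encodes the peptide-loading chaperone tapasin, averaged 8.16 ± 2.22 in protrusions and 68.0 ± 20.5 in cell bodies. NABP2, which encodes a single-stranded DNA-binding protein, averaged 7.86 ± 3.26 in protrusions and 55.6 ± 23.1 in cell bodies. For PFKL the closest were MPRIP (0.14), CSNK2A1 (0.17) and TRIM28 (0.17), and for PFKP they were EIF3B (0.11), RNF145 (0.11) and SSRP1 (0.11).

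**Figure D2:**
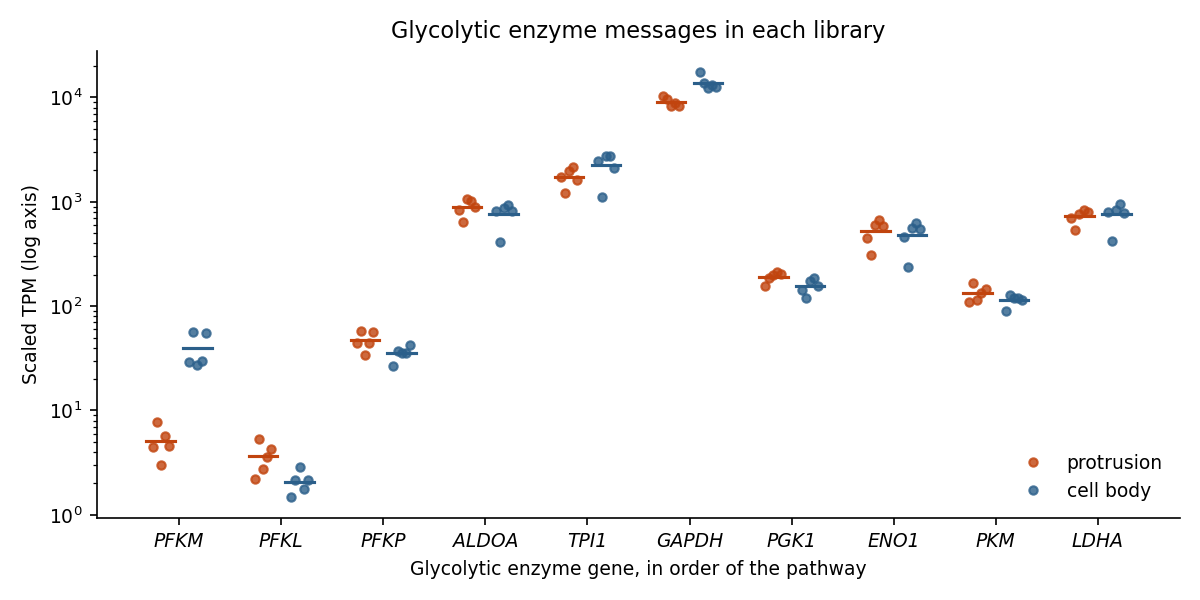
Scaled TPM on a log axis for each of the 10 enzyme genes in pathway order, with the 5 protrusion libraries as points on the left of each gene, the 5 cell body libraries on the right and lines at the group means. PFKM averaged 5.10 in protrusions and 39.6 in cell bodies, while the values of 8 genes overlapped between the groups.

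GAPDH, which oxidises glyceraldehyde 3-phosphate and often serves as a loading standard, was the most abundant of the enzymes and ranked between 6 and 16 among all genes of a library. It stood at 10224, 9739, 8220, 8791 and 8242 in protrusion replicates 1 to 5, against 17553, 13839, 12224, 13253 and 12575 in cell body replicates 1 to 5. Every protrusion was below every cell body, and the spread between numbers was narrow, with a log2 ratio of -0.78 to -0.51 for the same number. GAPDH averaged 9043 ± 903 in protrusions and 13889 ± 2141 in cell bodies, and it fell by 0.61 on the log2 scale (SE 0.14, limma adjusted p = 0.00446).

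This call depended on the scaling. With each library brought to the same sum the GAPDH change was -0.25 (adjusted p = 0.0525), and after quantile normalization it was 0.16 (adjusted p = 0.421). With median-of-ratios scaling it was -0.46 (adjusted p = 0.0273). Under these scalings the median gene changed by 0.24, 0.28 and 0.09, against -0.03 as deposited, so GAPDH lay below that median under each of the 4. As a share of the library sum, GAPDH made up 1.02% ± 0.0977 in protrusions and 1.22% ± 0.146 in cell bodies, with overlapping ranges. Of the GAPDH transcript, 13.8% of runs of 50 bases occur in another gene, among them its processed pseudogenes, and 14.2% of its exon bases overlap AC006064.4 on the opposite strand.

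Thus 2 of the 10 enzymes, PFKM and GAPDH, were called lower in protrusions and 0 were called higher by limma. Among all tested genes 21.5% were called lower, 4.28% higher and 25.8% either. At an unadjusted p under 0.05, 1 was higher, PFKL. Those 2 were also the enzymes whose groups did not overlap, which held for 21.8% of all tested genes, 18.4% with every protrusion below every cell body. The median log2 change of the 10 was 0.18, beside -0.03 for all tested genes. With the replicate block, under which 1412 genes were called higher and 2769 lower, PFKP and PGK1 were also called higher and TPI1 lower.

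ALDOA, aldolase A, splits fructose 1,6-bisphosphate. It stood at 828, 644, 1062, 1011 and 899 in protrusion replicates 1 to 5, against 820, 415, 875, 932 and 813 in cell body replicates 1 to 5. The groups overlapped, and every number had a higher value in its protrusion. The log2 change was 0.24 ± 0.22 (SE, limma adjusted p = 0.486). In GENCODE release 29, 53.5% of its exon bases are shared with overlapping loci, and 81.6% of runs of 50 bases occur in another gene. The locus with the largest overlap, AC093512.2, is not in the deposited gene table under that symbol, and the annotation used there is not given. How the shared reads of ALDOA were assigned is therefore uncertain.

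TPI1, triosephosphate isomerase, was the second most abundant enzyme. Of the runs of 50 bases in its transcript, 30.1% occur in another gene, TPI1P1 or TPI1P2. The TPI1 pseudogenes in the table came to at most 0.0663% of the TPI1 value of a library. TPI1 stood at 1725, 1202, 1990, 2146 and 1629 in protrusion replicates 1 to 5, against 2436, 1111, 2766, 2776 and 2126 in cell body replicates 1 to 5. The lowest library of all was cell body replicate 2, and number 2 was the one number with the higher value in its protrusion. The log2 change was -0.32 ± 0.24 (limma adjusted p = 0.384), and it passed with the replicate block (adjusted p = 0.0138), without cell body replicate 2 (-0.56, adjusted p = 0.0332) and without both libraries numbered 2 (-0.43, adjusted p = 0.0350). With each library brought to the same sum the change was 0.04 (adjusted p = 0.939).

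PGK1, phosphoglycerate kinase 1, stood at 157, 184, 201, 215 and 202 in protrusion replicates 1 to 5, against 141, 121, 176, 184 and 155 in cell body replicates 1 to 5. The groups overlapped, and each protrusion was above the cell body of its number, by 0.15 to 0.61 on the log2 scale. The change was 0.31 ± 0.16 (SE, limma adjusted p = 0.176, and 0.0219 with the replicate block), and it passed with equal sums (0.67, adjusted p = 0.0417) and median-of-ratios scaling (0.46, adjusted p = 0.0330).

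ENO1, enolase 1, averaged 522 ± 141 in protrusions and 485 ± 152 in cell bodies, with ranges of 311 to 665 and 236 to 629. Its log2 change of 0.13 ± 0.27 did not pass (limma adjusted p = 0.771). PKM, pyruvate kinase, averaged 134 ± 23.8 in protrusions and 114 ± 14.4 in cell bodies, with ranges of 109 to 166 and 89.0 to 127. Its log2 change was 0.23 ± 0.16 (limma adjusted p = 0.359), and it passed with equal sums (0.58, adjusted p = 0.0331). A gene total cannot separate the M1 and M2 splice forms of PKM. LDHA, the lactate dehydrogenase A subunit, averaged 729 ± 117 in protrusions and 756 ± 200 in cell bodies, with ranges of 538 to 839 and 420 to 958. Its log2 change was -0.02 ± 0.21 (limma adjusted p = 0.963), and the sign turned under the 3 other scalings.

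**Figure D3:**
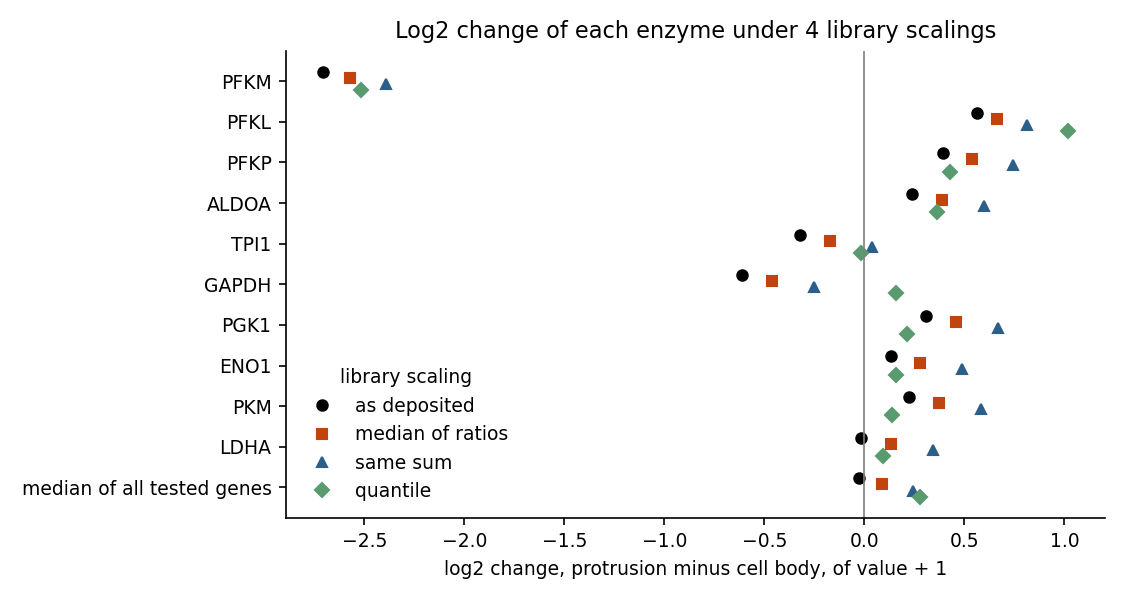
Log2 change, protrusion minus cell body, of value + 1 for each enzyme and for the median of all tested genes, as deposited and under 3 other library scalings. PFKM lay between -2.71 and -2.39 under the 4 scalings, while GAPDH ran from -0.61 to 0.16 and the median of all tested genes from -0.03 to 0.28.

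A ratio of enzymes within 1 library is again free of a common scaling factor. Relative to GAPDH, every enzyme but PFKM was higher in the protrusion than in the cell body of the same number, for 5 of 5 numbers each. The mean log2 ratio to GAPDH was higher in protrusions by 1.38 for PFKL, 1.01 for PFKP, 0.92 for PGK1, 0.85 for ALDOA, 0.84 for PKM, 0.74 for ENO1, 0.59 for LDHA and 0.29 for TPI1. For PFKM it was lower by 2.33 (-10.9 ± 0.440 in protrusions and -8.52 ± 0.603 in cell bodies). These values share the GAPDH level and are given as a description. GAPDH made up 68.0% ± 5.54 of the sum of the 10 enzymes in protrusions and 75.1% ± 6.40 in cell bodies.

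The order of levels was much the same in both groups apart from PFKM. In protrusions GAPDH was followed by TPI1, ALDOA, LDHA, ENO1, PGK1, PKM, PFKP, PFKM and PFKL. The ranges of ALDOA and LDHA overlapped, as did those of LDHA and ENO1, of PGK1 and PKM and of PFKM and PFKL, and the other neighbours in this order did not overlap. In cell bodies PFKM stood above PFKP on average, with overlapping ranges of 27.2 to 56.4 and 26.8 to 42.2, and PFKL was lowest with no value above 2.85. Together the 10 messages made up 1.52% ± 0.230 of the library sum in protrusions and 1.64% ± 0.264 in cell bodies.

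The libraries numbered 2 stood apart for several enzymes in both parts of the cell. ALDOA, TPI1, ENO1 and LDHA were lowest in replicate 2 of both groups, while PFKM and PKM were highest in replicate 2 of both. Without GAPDH, the other 9 enzymes made up 0.282% of the library in protrusion replicate 2, against 0.430% to 0.646% in the other protrusions. They made up 0.182% in cell body replicate 2, against 0.382% to 0.557% in the other cell bodies. Without cell body replicate 2 the ALDOA change was 0.03 (limma adjusted p = 0.931) and the ENO1 change -0.11 (adjusted p = 0.782).

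**Figure D4:**
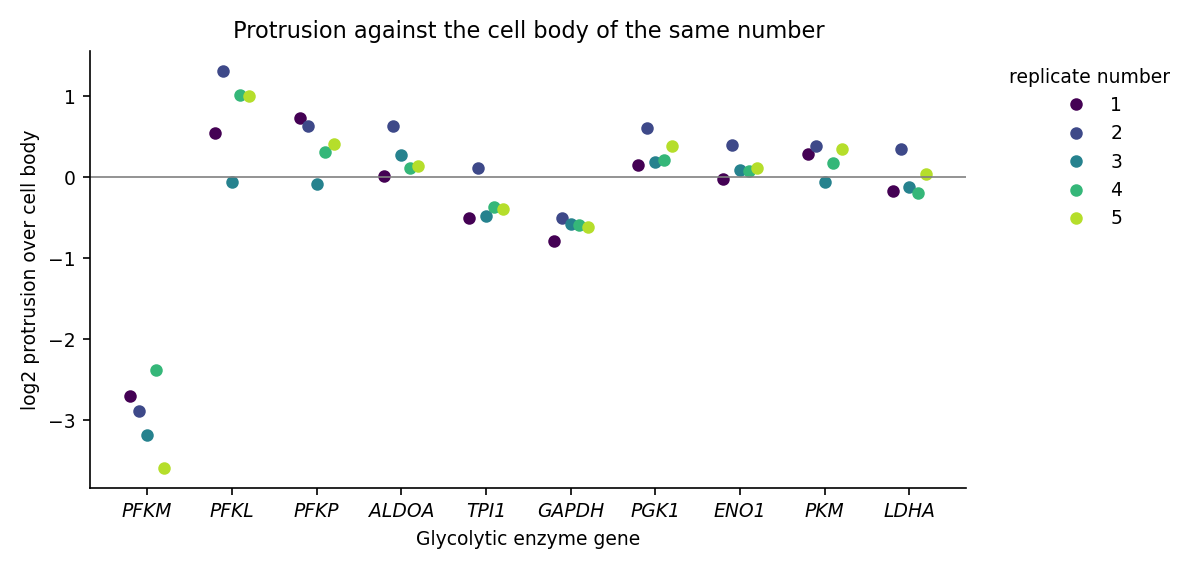
Log2 ratio of protrusion over the cell body of the same replicate number, with no pseudocount, for each enzyme, 1 point per number. PFKM lies between -3.59 and -2.38 and GAPDH between -0.78 and -0.51 for every number, ALDOA and PGK1 lie above 0 for every number, and number 2 is the highest for every enzyme but PFKM and PFKP.

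Around these enzymes, 60 further genes of sugar and pyruvate metabolism were listed, of which 53 were in the table and 38 were tested. Of those 38, 3 were called higher, 4 were called lower and 31 did not pass, beside 4.28% higher and 21.5% lower among all tested genes, and their median log2 change was 0.19. Of the 4 called lower, SLC16A1 and PDP2 were under 1 in some or all protrusions and passed the filter through the cell bodies, and without them 2 of 36 were lower. The 21.5% still holds genes of that kind, so 2 of 36 cannot be set against it. Among genes at 10 or more in at least 5 libraries, 667 of 4007 were called lower. Blocking on the replicate number gave 9 higher and 6 lower calls, beside 1412 higher and 2769 lower among all 10894 tested genes. Equal sums gave 7 higher calls here, beside 1533 among all tested genes. Quantile normalization gave 10 here, beside 2380, and median-of-ratios scaling gave 5, beside 1132. Higher calls among all tested genes thus rose too, from 466 as deposited, so these counts are not particular to the listed genes.

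At the entry of the pathway, 0 of 4 tested hexokinase and glucose phosphate isomerase genes passed in limma, beside 25.8% of all tested genes. With the replicate block 1 rose and 2 fell (HK1, against GPI and ADPGK), beside 1412 and 2769 of all 10894. HK1, the main hexokinase here, stood at 45.0, 76.1, 34.7, 42.2 and 61.7 in protrusion replicates 1 to 5, against 31.1, 44.6, 23.2, 29.7 and 32.9 in cell body replicates 1 to 5. The log2 change was 0.64 (limma adjusted p = 0.0540, and 8.87e-04 with the replicate block), and each protrusion was above its cell body. HK1 also passed under the 3 other scalings and without both libraries numbered 2 (0.61, adjusted p = 0.0291). HK2 averaged 2.86 ± 1.13 in protrusions and 2.59 ± 0.800 in cell bodies (0.08, limma adjusted p = 0.855). GPI, which isomerises glucose 6-phosphate, averaged 41.7 ± 8.61 in protrusions and 59.4 ± 9.84 in cell bodies (-0.51, limma adjusted p = 0.0550, and 0.0303 with the replicate block). ADPGK, an ADP-dependent glucokinase, averaged 3.70 in protrusions and 6.65 in cell bodies (-0.77, limma adjusted p = 0.0687, and 0.0327 with the replicate block). The phosphofructokinase regulators PFKFB3 and PFKFB4, which set the level of fructose 2,6-bisphosphate, had changes of 0.29 and 0.25, and 0 of the 2 passed. PGAM1, phosphoglycerate mutase 1, averaged 375 ± 32.6 in protrusions and 326 ± 59.7 in cell bodies (0.22, limma adjusted p = 0.341).

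Of 6 tested lactate dehydrogenase and carrier genes, 0 were called higher and 2 lower, beside 4.28% and 21.5% of all tested genes. Without SLC16A1, which passed the filter only through the cell bodies, 1 of 5 was lower. The replicate block, which gave 1412 higher calls among all 10894 tested genes, added BSG as higher. BSG encodes the MCT1 partner basigin (155 in protrusions and 117 in cell bodies, 0.45, limma adjusted p = 0.00842 with the block and 0.389 without). SLC16A1, which encodes the lactate carrier MCT1, stood at 0.084, 0.640, 0.015, 0.173 and 0.077 in protrusion replicates 1 to 5, against 5.34, 9.75, 3.79, 4.37 and 7.92 in cell body replicates 1 to 5. It reached 1 in 0 of 5 protrusions and 5 of 5 cell bodies, so it passed the filter only through the cell bodies and had to differ. Its log2 difference of -2.55 is therefore a description. SLC2A3, the glucose carrier GLUT3, averaged 4.17 ± 4.07 in protrusions and 10.0 ± 2.98 in cell bodies and fell by 1.31 (limma adjusted p = 0.0189). Protrusion replicate 2 at 11.3 was among the cell body values of SLC2A3, and SLC2A3 no longer passed when protrusion replicate 1, protrusion replicate 3 or cell body replicate 1 was left out (adjusted p up to 0.0533). SLC2A1, the glucose carrier GLUT1, averaged 18.6 ± 5.89 in protrusions and 20.5 ± 2.69 in cell bodies (limma adjusted p = 0.609). LDHB, the B subunit, averaged 916 ± 76.9 in protrusions and 878 ± 177 in cell bodies (limma adjusted p = 0.759), and SLC16A3, the lactate carrier MCT4, averaged 2.99 ± 2.03 in protrusions and 2.11 ± 0.442 in cell bodies (limma adjusted p = 0.737).

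Of the 6 tested pentose phosphate genes, 2 rose and 0 fell, beside 4.28% higher and 21.5% lower among all tested genes. All 6 changes were positive, with a median of 0.57 beside -0.03 for all tested genes. With the replicate block 5 of the 6 rose, beside 1412 of all 10894 tested genes. The additions were PGD (0.54, limma adjusted p = 0.0266 with the block and 0.0700 without), RPE (0.60, 0.0122 and 0.206) and TALDO1 (0.35, 0.0308 and 0.319). TKT, transketolase, averaged 47.0 ± 8.27 in protrusions and 30.1 ± 4.03 in cell bodies, and its log2 change was 0.62 (limma adjusted p = 0.0141). PGLS, 6-phosphogluconolactonase, averaged 39.5 ± 4.68 in protrusions and 25.9 ± 5.34 in cell bodies, a change of 0.61 (limma adjusted p = 0.0212). PGLS was lost without protrusion replicate 4, cell body replicate 5 or both libraries numbered 2 (adjusted p = 0.0548, 0.0591 and 0.0522). G6PC3, a ubiquitous glucose 6-phosphatase, averaged 45.4 ± 6.47 in protrusions and 27.0 ± 6.42 in cell bodies. Its change was 0.75 (limma adjusted p = 0.00912), the one call among 3 tested gluconeogenesis genes. For TKT, PGLS and G6PC3 every protrusion was above every cell body, which held for 3.46% of all tested genes.

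Where pyruvate enters the mitochondrion, 0 of 12 tested genes were called higher and 2 lower, beside 4.28% and 21.5% of all tested genes. Without PDP2, which passed the filter through the cell bodies, 1 of 11 was lower. With the replicate block 1 was higher and 2 lower, beside 1412 and 2769 of all 10894. PDHX, the component that anchors E3 in the pyruvate dehydrogenase complex, averaged 8.07 ± 2.34 in protrusions and 20.0 ± 2.74 in cell bodies, and its log2 change was -1.24 (limma adjusted p = 3.50e-04). PDP2, a pyruvate dehydrogenase phosphatase, averaged 1.02 ± 0.707 in protrusions and 6.98 ± 2.82 in cell bodies, and its log2 difference was -1.97. PDP2 reached 1 in 2 of 5 protrusions and 5 of 5 cell bodies, so it passed the filter through the cell bodies and this difference is a description. PDHA1 and PDHB, the E1 subunit genes of the same complex, had changes of 0.53 (limma adjusted p = 0.222, and 0.00476 with the replicate block) and 0.24 (limma adjusted p = 0.616). PDHA1 was higher in the protrusion of 5 of 5 numbers.

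**Figure D5:**
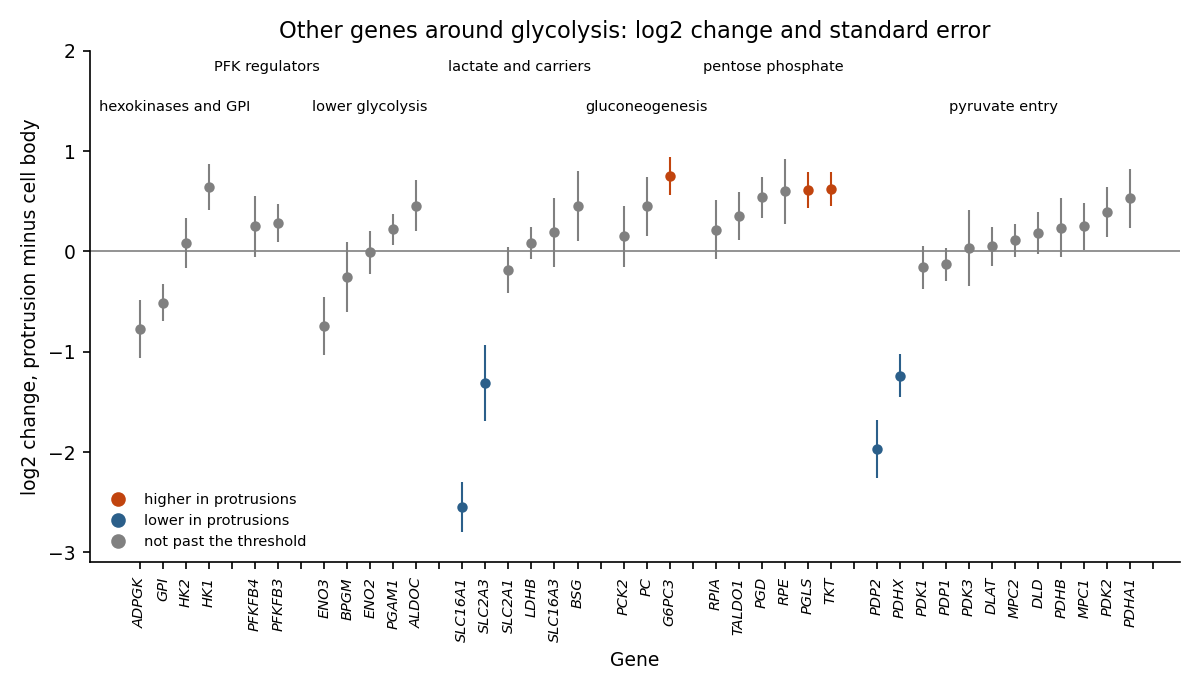
Log2 change, protrusion minus cell body, with its standard error for the 38 tested genes around glycolysis, grouped by role and ordered by change within a group. The 3 genes called higher in protrusions are TKT, PGLS and G6PC3, and the 4 called lower are SLC16A1, SLC2A3, PDP2 and PDHX. SLC16A1 and PDP2 passed the filter through the cell bodies, so their differences are a description.

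Loci named as pseudogenes of the enzymes had low values beside those of their parent genes. How reads that fit both a pseudogene and its parent were assigned is not known. The table held 45 loci named as pseudogenes of a member, 30 of them of GAPDH, and 7 had a mean of 1 or more. The GAPDH pseudogenes together came to 0.142% to 0.199% of the GAPDH value of a library, and those of LDHA to 0.238% to 1.43%. LDHAP4 was the highest of the LDHA pseudogenes, at 6.21 ± 3.03 in protrusions and 4.03 ± 2.52 in cell bodies (limma adjusted p = 0.405, and 0.0337 with the replicate block). LDHAP4 was higher in the protrusion of 5 of 5 numbers. GAPDHP64 was the highest of the GAPDH pseudogenes, at 4.77 ± 0.505 in protrusions and 5.56 ± 0.925 in cell bodies (limma adjusted p = 0.542). The others above that level were GAPDHP44, GAPDHP21, GAPDHP61, GAPDHP71 and GAPDHP38, with changes of -0.28 to -0.09, and 0 of the 7 passed in limma at an adjusted or an unadjusted p under 0.05 without the block, and LDHAP4 passed with it. No locus in the table was named as a pseudogene of PFKM, PFKL or PFKP.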

How the data were processed

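Gene expression was measured by sequencing amplified polyadenylated RNA (SMART-Seq v4) in 10 libraries, 5 of protrusions and 5 of cell bodies, grouped and numbered by their labels. Tools listed in the submitters' processing notes, without role or order, are HISAT2, StringTie 1.3, cutadapt 1.10 and FastQC 0.10.1. Genome build, annotation and strand setting were not given in the sources used. The authors deposited 1 value per gene and library without naming its unit. Within a tolerance of 0.00051, 93.2% to 100% of values under 2 were whole multiples of a step set by the library sum, against 7.31% to 13.7% of random values, so they are called scaled TPM. The factors averaged 0.891 ± 0.138 in protrusions and 1.14 ± 0.177 in cell bodies. TPM keeps no depth, so no counting interval is given and no count model was run. The authors' deposited table also gives a log2 fold change, a p-value and a false discovery rate, with the test and grouping behind them not given and in doubt.

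Genes at 1 or more in at least 5 libraries were fitted with limma-trend (limma 3.58.1, R 4.3.3) after taking log2(value + 1), protrusion minus cell body, adjusted by Benjamini-Hochberg over all tested genes at a threshold of 0.05. Fold changes on this scale understate the change of low genes. The fit was tested on simulated data. Isoform ratios had no pseudocount. The replicate numbers pair the libraries: deviations from the group means correlated by 0.236 to 0.577 across genes between libraries of the same number, and each protrusion correlated best with its own number. The block is an alternative, and its values stand beside the named results whose call it changed. Other alternatives were the pseudocount, the filter, 3 scalings, and leaving out libraries, all on the genes tested in the main fit unless the filter was the choice. Named were all 10 enzymes, other listed genes past the threshold with 8 chosen by name (HK1, HK2, GPI, PGAM1, LDHB, SLC2A1, SLC16A1, SLC16A3), the 3 closest genes per phosphofructokinase, and pseudogenes with a mean of 1 or more; SENP1, ADPGK, BSG, PGD, RPE, TALDO1 and the PFKFB, PDHA1 and PDHB genes were added after their values were seen. The enzymes and lists were chosen with earlier results of these data known. Annotation and sequences came from GENCODE release 29. Other software was matplotlib 3.10.9, Biopython 1.88, scipy 1.17.1, pandas 2.3.3, numpy 2.4.6 and Python 3.11.15.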

Additional observations from a re-analysis of the deposited data

Results flagged for a closer look

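ALDOA in cell body replicate 2 stood far below the other cell bodies, at 415 scaled TPM against 813 to 932. The gap to the nearest of them was 0.77 of the range of the group, above the critical value of 0.71 for 5 libraries. It was the 1 such value among 26 groups of 5 looked at (10 enzymes and 3 isoform ratios in each part of the cell), where chance gives about 1 in 20. In protrusion replicate 2 ALDOA was also the lowest of its group, at 644 against 828 to 1062. The cause was not tested.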

How the results depend on the processing

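The fall of PFKM passed under every alternative run, with log2 changes of -2.92 to -2.39 and adjusted p of 5.11e-07 to 7.20e-05. The number of enzymes called higher was 4, 1 and 3 with equal sums, quantile normalization and median-of-ratios scaling. It was 2 with the replicate block and 0 to 1 with 1 library left out. Over all 10894 tested genes, higher calls were 1533, 2380 and 1132 under these scalings and 1412 with the block, against 466 as deposited. The number of enzymes called lower was 1 with equal sums and 1 with quantile normalization, and 2 to 3 with 1 library left out. Over all tested genes, lower calls were 1879, 1778 and 2143 under the 3 scalings, against 2340 as deposited. With 1 library left out, all tested genes gave 257 to 649 higher and 2136 to 2576 lower calls. Of the other listed genes, 7, 10 and 5 were called higher under these 3 scalings and 9 with the block. With 1 library left out 2 to 4 were higher and 3 to 5 lower. Among genes at 10 or more in at least 5 libraries, 1 was called lower, beside 667 of all 4007 tested there. SLC16A1, SLC2A3 and PDP2 were not tested under that filter, so this lower count does not mean that their calls were lost. The differences of PFKP over PFKM (3.35) and PFKL over PFKM (3.71) had an adjusted sign-flip p of 0.0938 with the replicate block, which cannot pass with 5 pairs. With 1 library left out they were 3.22 to 3.47 and 3.58 to 3.95, and PFKP over PFKL was -0.51 to -0.28, passing without protrusion replicate 1 (-0.51, adjusted p = 0.0317). With no filter SLC2A3 had an adjusted p of 0.0506. PFKL was below the filter of 10 or more, which gives it no value there.

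Over 24 named genes, 375 of 426 single-gene values kept direction and side of the threshold. Signs turned for GAPDH (0.16, quantile), TPI1 (0.035, equal sums), SLC2A1 (0.15, equal sums) and LDHA (0.34, 0.093 and 0.13 with equal sums, quantile and median-of-ratios scaling). With libraries left out, signs turned for LDHA without cell body replicates 1, 3, 4 and 5 and protrusion replicate 2 (-0.22 to 0.087 with 1 library left out), and for ENO1 without cell body replicate 2 (-0.11 to 0.31). They turned for HK2 without protrusion replicate 2 or cell body replicate 4 (-0.050 to 0.24), for LDHB without cell body replicate 2 (-0.056 to 0.15) and for SLC16A3 without protrusion replicate 5 (-0.028 to 0.46). Without both libraries numbered 2 these 3 were -0.037, -0.020 and -0.015. The replicate block ended no call among the 24 genes. The causes were not tested, and unknown depth limits what the low values of PFKL, HK2 and SLC16A1 can show.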

Other observations

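The authors' deposited table gave PFKM a log2 fold change of 0.68, with a false discovery rate of 0.724, and no enzyme had a lower rate. The direction of these fold changes is not stated. Another gene, RAB13, stands at -2.37 there, while its log2 change here was 2.59, higher in protrusions. The deposited expression values of the labelled groups give PFKM a cell body mean 7.75 times the protrusion mean. On the log2 scale, protrusion over the cell body of the same number averaged -2.94 for PFKM, a much larger size than 0.68. The grouping of libraries behind the authors' deposited table is not given in the sources used here and may not be that of the labels. Its values for PFKM therefore cannot be read as protrusion against cell body.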
